A study of Mus musculus with 6 samples.

Results

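Nuclear receptors are transcription factors that, for the most part, are switched by small lipid-soluble ligands. The 10 receptors described here were chosen by name for their known roles in macrophages, and each one has its own row among the 22377 genes of the count table. They are the NR4A orphan receptors Nr4a1, Nr4a2 and Nr4a3, the liver X receptors (LXR) Nr1h2 and Nr1h3, the retinoid X receptor Rxra, the lipid and vitamin receptors Pparg, Rara and Vdr, and the glucocorticoid receptor Nr3c1. All 10 passed the filter on low counts, with between 162 and 44632 counts in a library.

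The NR4A receptors have no known classical ligand and are induced within minutes to hours of a stimulus, so their activity follows the amount of the protein. LXR, PPARγ, RAR and VDR bind DNA as pairs with RXR and respond to oxysterols, fatty acids, retinoic acid and active vitamin D. The glucocorticoid receptor binds DNA mainly as a pair with itself and represses inflammatory genes. In macrophages these receptors are known for control of cholesterol export, lipid storage and the tone of inflammation.

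The data comprise 6 RNA sequencing libraries, 3 labelled wt and 3 labelled ko and knockdown, each given as a separate biological sample. By the methods, CD45+ CD11b+ F4/80+ tumor-associated macrophages (TAMs) were sorted from subcutaneous tumors of Lewis lung carcinoma (LLC) cells in Npm1+/+ and Npm1+/- mice, young adults of both sexes. The allele is carried by the whole animal and not by macrophages alone, and every mouse received the same tumor cell line. A heatmap of the study shows fewer mice per group than the libraries analysed here. The labels give tumor tissue as the material and no genotype, and a knockdown differs from a heterozygous allele, so the groups are called wt and labelled ko here. Total counts lay between 36550775 and 38147320.

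Npm1 itself (nucleophosmin, NCBI Gene 18148), a nucleolar chaperone of ribosome assembly, was not lower in the libraries labelled ko. Its level was 142, 380.2 and 381 CPM (counts scaled to library size, with the TMM factors of edgeR) in wt replicates 1, 2 and 3 and 441, 499 and 343 in ko replicates 1, 2 and 3. The log2 fold change was 0.51 (95% interval -0.33 to 1.34, adjusted p = 0.436, edgeR's quasi-likelihood test), or 0.16 without wt replicate 1, and directions below are those between the libraries as labelled. Macrophage markers were abundant in every library. Over 12 markers the summed level was 21833 to 26968 CPM in wt libraries and 13133 to 22307 in libraries labelled ko. In the latter, 7 of the 12 were lower without overlap, against 12.6% of all genes tested. Lyz2 and Cd14 made up most of the summed level, at 14144 and 5318 CPM in wt replicate 1 and 5667 and 3395 in ko replicate 2. Both overlapped between the groups, and the macrophage marker scale used below mostly follows them. The 10 fibroblast markers summed to 32.7 to 491 CPM in wt libraries and 369 to 715 in libraries labelled ko, and wt replicate 1 held the lowest sum. Col3a1 made up most of it, at 19.0 to 426 CPM in wt libraries and 308 to 604 in libraries labelled ko. All 10 had a higher estimate in the latter, but only 1, Fap, was higher without overlap, against 13.3% of all genes tested. The 6 T cell markers in the table summed to 21.4 to 92.8 CPM in wt libraries and 73.1 to 202 in libraries labelled ko, and the 6 neutrophil markers to 1694 to 1894 and 730.4 to 1478. The 6 epithelial markers, which carcinoma cells could bring, summed to 36.1 to 138 and 129 to 192 CPM, with Krt19 at 0 counts in 5 of the 6 libraries. The higher sums were mostly Krt8, at 9.90 to 117 CPM in wt libraries and 105 to 171 in libraries labelled ko. Of the 4 tested, 2 had a higher and 2 a lower estimate in the latter. Among them Krt7 was lower without overlap, at 0.338 to 0.928 and 0.246 to 0.305 CPM. The part of these other cells in the results below was not tested, and in a bulk sample fewer macrophages and less RNA per macrophage cannot be told apart. wt replicate 1 stood apart from the other 5 libraries, at -108 on a first principal component where they lay between -4.54 and 52.0. It held the highest value of 7 of the 10 receptors, which was also the case for 33.0% of all genes tested.

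The 3 NR4A genes differed in their relation to the labels, and the letters of their promoters are given first because induction at the promoter is what these genes are known for. The cAMP response element (CRE), at which CREB drives immediate early genes, has the letters TGACGTCA with the core TGACG. The search covered both strands of the 300-base RefSeq windows of GRCm38.p6, from 250 bases before to 50 after a start site, and a core inside a full element also counts as a core. The windows of Nr4a1, Nr4a2 and Nr4a3 held 4 cores each. A core occurred in 20.8% of 32851 promoter windows, and 4 or more in 0.231%. The full element was in none of the 16 windows of the 9 receptors searched and in 1.79% of all windows. The following stretches of 21 bases show a pair of the 4 cores of each gene, with the core in capitals, written TGACG or as its reverse complement CGTCA. The last stretch begins with another core of Nr4a3, left in lower case.
Nr4a1, 69 bases before the start, chr15:101266769-101266789, plus strand: gccgtgtgCGTCAgtggcgcc
Nr4a1, 40 bases before the start, chr15:101266798-101266818, plus strand: tctccatgCGTCAcggagcgc
Nr4a2, 123 bases before the start, chr2:57124114-57124134, minus strand: ggccgggcTGACGgggccgct
Nr4a2, 111 bases before the start, chr2:57124102-57124122, minus strand: ggggccgcTGACGcgcttggc
Nr4a3, 231 bases before the start, chr4:48045066-48045086, plus strand: gaggagggTGACGtagcgtcc
Nr4a3, 205 bases before the start, chr4:48045092-48045112, plus strand: cgtcacatTGACGtctcgcat
Outside the NR4A genes, Nr1h2 had 1 core and Rara 1 core in each of 2 of its 4 windows. The STAT element TTCNNNGAA was found in 1 window of Rara and in 8.3% of all windows. The element AAAGGTCA, which NR4A proteins bind as single molecules, was found in 1 window of Rxra and in 1.51% of all windows. The AP-1 element TGANTCA was found in no window of the 9 receptors and in 7.81% of all. These are matches of letters only, and binding was not measured.

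Nr4a1 (Nur77, NCBI Gene 15370, chromosome 15 of GRCm38 from 101254269 to 101274795, plus strand) restrains inflammatory genes in macrophages and is needed for patrolling monocytes. Its level was 1255, 784.5 and 1006 CPM in wt replicates 1, 2 and 3 and 651, 568 and 803 in ko replicates 1, 2 and 3. All 3 libraries labelled ko were below wt replicates 1 and 3, but ko replicate 3 lay slightly above wt replicate 2, so the groups overlapped. The means were 1015 ± 235 and 674 ± 119 CPM (SD, n = 3 each), and the log2 fold change was -0.59 (95% interval -1.09 to -0.10, standard error 0.21, adjusted p = 0.328, edgeR's quasi-likelihood test).
Nr4a2 (Nurr1, NCBI Gene 18227, chromosome 2 from 57106830 to 57124003, minus strand), a relative with a similar DNA-binding domain, is also known for its role in dopamine neurons. Its level was 60.8, 50.8 and 49.1 CPM in wt replicates 1, 2 and 3 and 64.5, 67.5 and 70.5 in ko replicates 1, 2 and 3. Every library labelled ko exceeded every wt library, by little for wt replicate 1, and the log2 fold change was 0.33 (95% interval 0.042 to 0.62, standard error 0.12, adjusted p = 0.328, edgeR).
Nr4a3 (Nor1, NCBI Gene 18124, chromosome 4 from 48045153 to 48086447, plus strand) is induced by the same stimuli. Its level was 109, 149 and 116 CPM in wt replicates 1, 2 and 3 and 126, 128 and 132 in ko replicates 1, 2 and 3. The libraries labelled ko lay close together and inside the wt range, and the interval of the log2 fold change ran from -0.29 to 0.38.

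The proportion of the NR4A transcripts to each other does not depend on how the libraries are scaled. The ratio of Nr4a1 to Nr4a2 in FPKM (counts scaled to gene length and to the library total) was 16.5, 12.3 and 16.4 in wt replicates 1, 2 and 3 and 8.06, 6.72 and 9.10 in ko replicates 1, 2 and 3. The ratio was lower in each library labelled ko than in each wt library, with means of 15.1 ± 2.4 and 7.96 ± 1.19 (SD, n = 3 each, two-sided exact permutation p = 0.1, below which 3 against 3 libraries cannot go). Nr4a1 made up 82.9% to 89.5% of the summed NR4A FPKM in wt libraries and 77.1% to 82.1% in libraries labelled ko, without overlap. Nr4a2 made up 5.37% to 6.73% in wt libraries and 9.02% to 11.5% in libraries labelled ko. The shares of Nr4a1 and Nr4a2 come from the same FPKM as their ratio, so their separation largely repeats it. The share of Nr4a3 overlapped, at 5.12% to 10.4% and 8.86% to 11.5%, as did the ratio of Nr4a1 to Nr4a3. These are 5 of 15 ratios, shares and sums that were chosen after the levels had been seen, and in 5 of the 15 the groups did not overlap. Adjusted over the 15, the lowest exact permutation p was 0.3 (Benjamini-Hochberg).

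**Figure D1:**
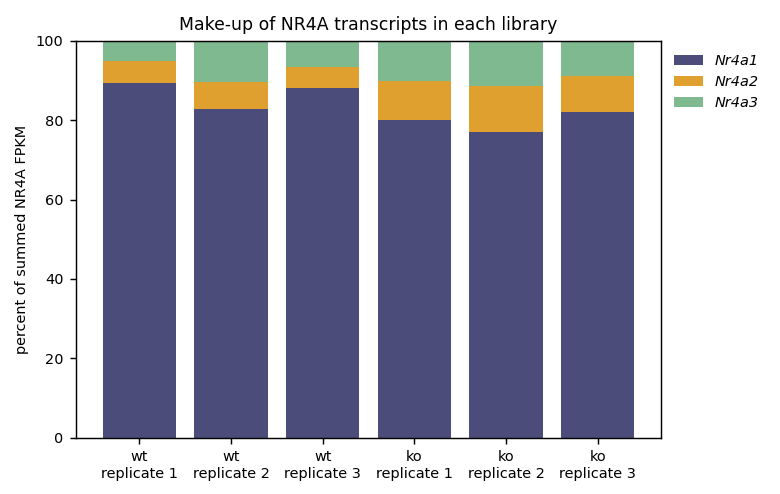
Stacked bars give the percent of the summed FPKM of the NR4A genes held by each gene (vertical axis) in each of the 6 libraries (horizontal axis). Nr4a1 fills most of every bar, and the Nr4a2 segment is between 9.02% and 11.5% in the ko libraries against 5.37% to 6.73% in the wt libraries.

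Other immediate early genes did not share 1 direction either. Of 16 such genes tested, including Fos, Jun and Egr1, 0 passed an adjusted p of 0.05 in edgeR over 6 libraries. At an unadjusted p under 0.05, 1 was higher and 2 were lower in the libraries labelled ko, where 6.9% and 8.31% of all genes tested were higher and lower, shares that also stand behind the counts of the other lists below, and the list had its median at -0.23 (log2), against 0.022 for all 13884 genes tested. The most abundant of them were Dusp1, a MAP kinase phosphatase, with a log2 fold change of -0.56 (standard error 0.26), Zfp36, a factor that degrades cytokine mRNA, with -0.40 (standard error 0.24), and Ier3 with -0.39 (standard error 0.22). For none of these 3 were the groups apart, as ko replicate 3 reached into the wt range. DESeq2 without wt replicate 1 and ko replicate 3 called 5 of the 16 genes, with Egr1 at 0.74 (adjusted p = 0.00151), Dusp1, Zfp36, Ier3 and Hspa1b, where it called 10.1% of all genes with an adjusted p. That share also stands behind the calls of this fit in the lists below, and edgeR on the same 4 libraries called 0% of all genes. Hspa1a and Hspa1b, near-identical heat shock genes among which reads may have been divided, had the smallest p of the list and log2 fold changes of -0.64 and -0.66 with adjusted p = 0.328 in edgeR. The summed level of the list was 14395 to 19367 CPM in wt libraries and 10708 to 14449 in libraries labelled ko.

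Nr1h2 (LXRβ, NCBI Gene 22260, chromosome 7 from 44549616 to 44553951, minus strand), the widely expressed LXR, had a level of 155, 121 and 109 CPM in wt replicates 1, 2 and 3 and 93.2, 91.0 and 106.3 in ko replicates 1, 2 and 3. The groups did not overlap, although ko replicate 3 and wt replicate 3 were close. The log2 fold change was -0.41 (95% interval -0.77 to -0.041, standard error 0.16, adjusted p = 0.328, edgeR).
Nr1h3 (LXRα, NCBI Gene 22259, chromosome 2 from 91184061 to 91202834, minus strand), the LXR of macrophages, liver and fat, was low, at 9.08, 5.64 and 6.79 CPM in wt replicates 1, 2 and 3 and 4.12, 4.03 and 5.33 in ko replicates 1, 2 and 3. Again every library labelled ko was below every wt library, and the log2 fold change was -0.67 (95% interval -1.29 to -0.059, standard error 0.26, adjusted p = 0.328, edgeR). A non-coding gene on the same strand, Gm13783, overlaps Nr1h3, and reads may have been divided between them. Per length, Nr1h2 held 90.6% to 93.2% of the LXR transcripts across the 6 libraries, and this share overlapped between the groups.

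LXR raises genes of cholesterol export, and 10 of 11 such targets could be tested. None passed an adjusted p of 0.05 in edgeR over 6 libraries, with 1 higher and 4 lower in the libraries labelled ko at an unadjusted p under 0.05 and a median log2 fold change of -0.20. Apoe, the carrier that takes up exported lipid and the most abundant target, was at 569, 548 and 507 CPM in wt replicates 1, 2 and 3 and 307, 271 and 415 in ko replicates 1, 2 and 3, well apart, with a log2 fold change of -0.71 (standard error 0.18, adjusted p = 0.328, edgeR). Abcg1, a cholesterol exporter, was at 58.9 to 95.2 CPM in wt libraries and 42.7 to 49.6 in libraries labelled ko, with a log2 fold change of -0.72 (standard error 0.19). Pltp, a phospholipid transfer protein, was also lower in each library labelled ko, with -0.63 (standard error 0.24). Scd2, a fatty acid desaturase, had a log2 fold change of -0.011 (standard error 0.12), and Abca1, the other main cholesterol exporter, one of 0.045 (standard error 0.20). DESeq2 without wt replicate 1 and ko replicate 3 called 4 of the targets, against 10.1% of all genes with an adjusted p. The DESeq2 calls were Apoe (-0.91, adjusted p = 2.29e-05), Pltp (-0.76, adjusted p = 0.0172), Abcg1 (-0.53, adjusted p = 0.0486) and Scd1, a further desaturase, in the other direction (0.72, adjusted p = 0.00924). Scaled to the macrophage markers, Apoe was at -0.21, Abcg1 at -0.14, Pltp at -0.16 and the median of the list at 0.29, where the median of all genes was at 0.56.

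Rxra (RXRα, NCBI Gene 20181, chromosome 2 from 27676440 to 27762957, plus strand), the common partner of these receptors, was at 91.6, 67.1 and 61.6 CPM in wt replicates 1, 2 and 3 and 47.4, 39.7 and 54.0 in ko replicates 1, 2 and 3. The groups were apart, with means of 73.5 ± 16.0 and 47.0 ± 7.1 CPM (SD, n = 3 each). Its log2 fold change was -0.64 (95% interval -1.08 to -0.20, standard error 0.19, unadjusted p = 0.010, adjusted p = 0.328, edgeR), the smallest p among the 10 receptors and rank 312 among all genes tested. The second RXR, Rxrb, had 50.1 to 60.0 CPM in wt libraries and 43.7 to 47.8 in libraries labelled ko, with a log2 fold change of -0.25 (standard error 0.12, adjusted p = 0.343, edgeR). Per length, Rxra was the minor form, with 37.1% to 42.6% of RXR transcripts in wt libraries and 30.6% to 37.3% in libraries labelled ko. The ratio of Rxra to Nr1h2 in FPKM, free of scaling, was 0.379, 0.357 and 0.362 in wt replicates 1, 2 and 3 and 0.326, 0.280 and 0.326 in ko replicates 1, 2 and 3, apart between the groups (two-sided exact permutation p = 0.1, again the lower limit).

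Rara (RARα, NCBI Gene 19401, chromosome 11 from 98927818 to 98974942, plus strand), a receptor of retinoic acid, had its highest level in 1 library. It was at 225, 91.2 and 114 CPM in wt replicates 1, 2 and 3 and 85.6, 74.7 and 107 in ko replicates 1, 2 and 3. wt replicate 1 held more than the other wt libraries together, the groups overlapped, and the log2 fold change of -0.68 (95% interval -1.45 to 0.085) became -0.20 without that library. Per length, Rara held 44.9% to 65.1% of the RAR transcripts, and most of the rest were of Rarg, at a mean of 21.4 FPKM. Of 7 tested targets of retinoic acid, 0 passed an adjusted p of 0.05 in edgeR over 6 libraries, and 1 was lower at an unadjusted p under 0.05. This was Dhrs3, which reduces retinaldehyde, at 30.5 to 36.8 CPM in wt libraries and 19.2 to 26.0 in libraries labelled ko, with a log2 fold change of -0.59 (standard error 0.16, adjusted p = 0.328, edgeR). Tgm2, a transglutaminase and the most abundant target, had -0.38 (standard error 0.17) with overlapping groups, and Hic1, a repressor, was at 2.11 to 9.78 CPM in wt libraries and 4.60 to 8.66 in libraries labelled ko. Without wt replicate 1 and ko replicate 3, DESeq2 called 2 of the 7, Dhrs3 (adjusted p = 0.0131) and Tgm2 (adjusted p = 0.0233), both lower. The same fit called 10.1% of all genes with an adjusted p.

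Vdr (NCBI Gene 22337, chromosome 15 from 97854425 to 97910630, minus strand), the vitamin D receptor, was at 139, 83.2 and 92.1 CPM in wt replicates 1, 2 and 3 and 90.7, 81.6 and 126 in ko replicates 1, 2 and 3. Each group held 1 high library, and the interval of the log2 fold change ran from -0.63 to 0.48. Pparg (PPARγ, NCBI Gene 19016, chromosome 6 from 115360951 to 115490399, plus strand), the receptor of lipid storage and of alternative activation, was at 9.25, 4.68 and 5.64 CPM in wt replicates 1, 2 and 3 and 4.96, 5.92 and 6.92 in ko replicates 1, 2 and 3. wt replicate 1 was again the highest and the other 5 libraries were mixed, with an interval from -0.85 to 0.58. An antisense gene, Gm44079, overlaps Pparg, and strand in the counting is not given in the sources used here. Per length, Pparg held 7.80% to 15.0% of the PPAR transcripts, and Ppard, at a mean of 16.5 FPKM, most of the rest. Ppard had 55.6 to 66.3 CPM in wt libraries and 43.4 to 53.2 in libraries labelled ko, with a log2 fold change of -0.37 (standard error 0.13, adjusted p = 0.328, edgeR).
Of 8 tested targets of PPARγ, 0 passed an adjusted p of 0.05 in edgeR over 6 libraries and 3 were lower at an unadjusted p under 0.05, with a median log2 fold change of -0.31. Plin2, which coats lipid droplets, had -0.32 (standard error 0.15) and Fabp5, a fatty acid carrier, -0.37 (standard error 0.15), both with groups that did not overlap. Acsl1, which activates fatty acids, had -0.41 (standard error 0.15), also without overlap. Cd36, a scavenger receptor, had -0.29 (standard error 0.15) with overlap. Scaled to the macrophage markers, Plin2 was at 0.21, Fabp5 and Acsl1 at 0.14 and Cd36 at 0.23, where the median gene was at 0.56. DESeq2 without wt replicate 1 and ko replicate 3 called 2 of the 8, against 10.1% of all genes with an adjusted p. The DESeq2 calls were Cd36 (-0.53, adjusted p = 0.0265) and the lipase inhibitor Angptl4 (0.94, adjusted p = 0.0396).

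Nr3c1 (NCBI Gene 14815, chromosome 18 from 39410545 to 39519421, minus strand), the glucocorticoid receptor, was at 76.1, 94.6 and 115 CPM in wt replicates 1, 2 and 3 and 99.1, 113 and 102 in ko replicates 1, 2 and 3. The ko values lay within the wt range, and the interval of the log2 fold change ran from -0.25 to 0.52. Like Nr4a3, Nr3c1 had its lowest level in wt replicate 1. Of 12 tested targets, 0 passed an adjusted p of 0.05 in edgeR over 6 libraries, and at an unadjusted p under 0.05 1 was higher and 2 were lower. The higher one was Sgk1, a kinase of ion transport, at 284 to 316 CPM in wt libraries and 399 to 432 in libraries labelled ko, with a log2 fold change of 0.44 (standard error 0.11, adjusted p = 0.328, edgeR). Ddit4, an inhibitor of mTORC1, was at 169 to 244 CPM in wt libraries and 112 to 162 in libraries labelled ko, with -0.67 (standard error 0.19). Anxa1, an anti-inflammatory annexin, had 0.23 (standard error 0.13) and overlapping groups. DESeq2 without wt replicate 1 and ko replicate 3 called 3 of the 12, against 10.1% of all genes with an adjusted p. The DESeq2 calls were Ddit4 (adjusted p = 0.0025), Dusp1 (adjusted p = 0.00282) and Zfp36 (adjusted p = 0.0398), all lower. Dusp1 and Zfp36 are also in the immediate early list and were among its calls above.

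**Figure D2:**
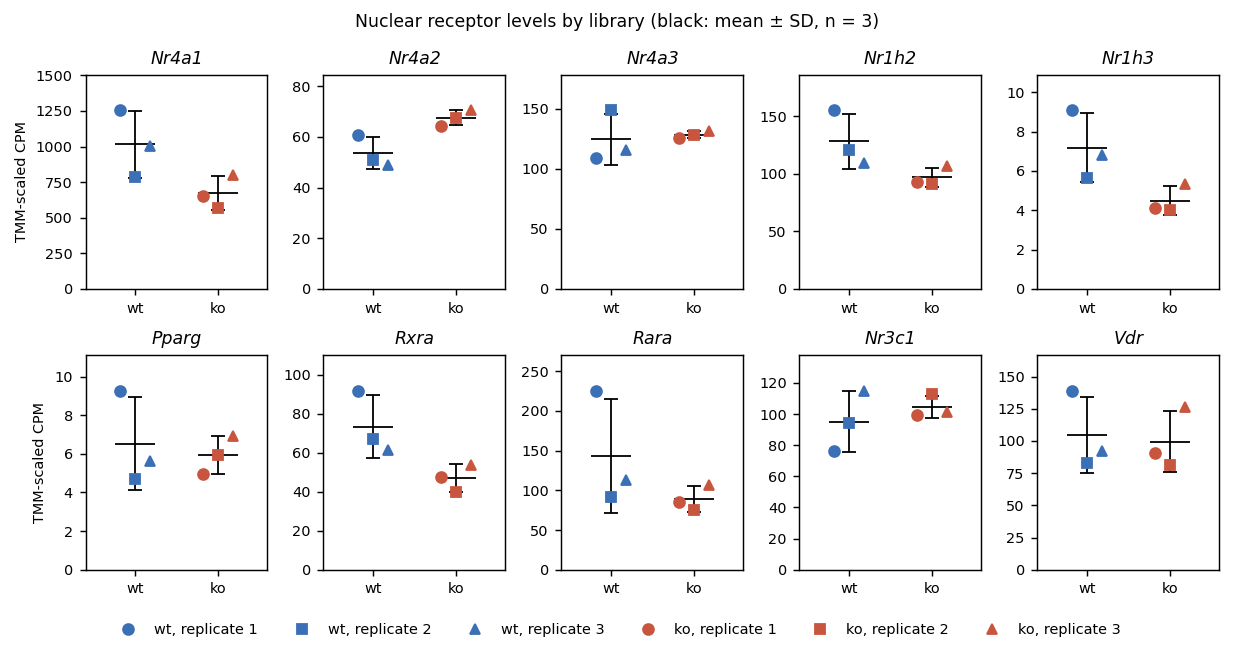
Each panel gives the TMM-scaled CPM of 1 receptor (vertical axis, from 0) in the wt and ko libraries, with a symbol for each replicate and the mean ± SD of 3 libraries in black. Nr4a2 is higher in all ko libraries and Nr1h2, Nr1h3 and Rxra are lower in all, while wt replicate 1 is the highest symbol in 7 panels.

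Set side by side, 7 of the 10 receptors had a lower and 3 a higher estimate in the libraries labelled ko, and 0 passed an adjusted p of 0.05 in edgeR's quasi-likelihood test. The background was the same, since 0% of the 13884 genes tested passed and the smallest adjusted p of any gene was 0.328. At an unadjusted p under 0.05 there were 5 receptors (Rxra, Nr4a1, Nr4a2, Nr1h2 and Nr1h3), against 15.2% of all genes tested. Of these, 1 was higher, against 6.9% of all genes, and 4 were lower, against 8.31%. In 3 receptors the libraries labelled ko lay wholly below the wt libraries, against 12.6% of all genes, and in 1 wholly above, against 13.3%, which makes 4 of 10 against 25.9% in either direction. DESeq2 on the same 6 libraries called 0 receptors and 0.263% of the genes with an adjusted p. Without wt replicate 1 and ko replicate 3, DESeq2 called Nr4a1 (log2 fold change -0.60, adjusted p = 0.015) and Rxra (-0.60, adjusted p = 0.021), where it also called 10.1% of the genes with an adjusted p. edgeR on these 4 libraries called 0 receptors and 0% of all genes. On the first principal component ko replicate 3 lay nearest to wt replicates 2 and 3, at 11.7 against 41.4 and 52.0 for ko replicates 1 and 2. Leaving it out takes away the library labelled ko that reached into the wt range for Nr4a1.
Leaving out wt replicate 1 alone moved every lower estimate toward 0 or past it. It left Rxra at -0.46, Nr1h3 at -0.47, Nr4a1 at -0.41 and Nr1h2 at -0.25, and turned Pparg to 0.20 and Vdr to 0.18, while Nr4a2 was at 0.43. At an unadjusted p under 0.05 only 2 of the 5 receptors were left in edgeR, Rxra and Nr4a2, against 12.2% of all genes, and Nr4a1, Nr1h2 and Nr1h3 were lost. The same 3 receptors stayed wholly below without it, against 15.2% of all genes, and the same 1 wholly above, against 16.6%. This outcome was fixed in advance, since leaving out a library cannot create overlap. Scaled to the summed counts of the macrophage markers in place of TMM, a choice made after seeing the data, the median of all genes moved to 0.56, Rxra was at -0.12, Nr1h3 at -0.15, Nr4a1 at -0.084, Rara at -0.15 and Nr1h2 at 0.14, and Nr4a2 was at 0.88. Read against that median, Rxra, Nr1h3, Nr4a1, Rara and Nr1h2 lay below the median gene and Nr4a2 above it. This repeats the TMM result and adds nothing to it, since the rescaling moves all genes by similar amounts. On that scale Rxra, Nr1h2 and Nr1h3 all overlapped between the groups, 0 receptors lay wholly below, against 0.562% of all genes, and 3 (Nr4a2, Nr4a3 and Vdr) lay wholly above, against 30.8%. All 10 receptors varied more between wt libraries than between libraries labelled ko, by the coefficient of variation, as did 68.5% of all genes tested. The wt spread includes wt replicate 1, which held the highest value of 7 receptors and the lowest of 2. The coefficient was not computed without that library, so a wider spread among the other wt libraries is not shown.

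**Figure D3:**
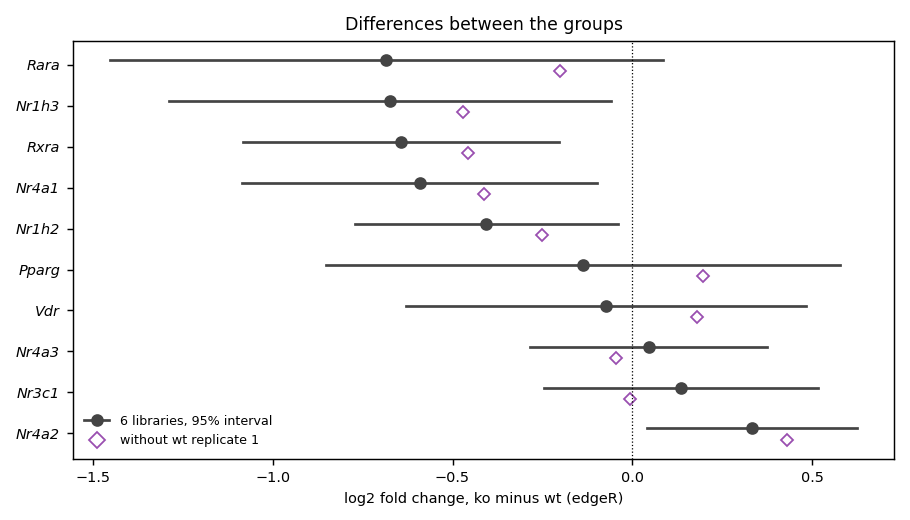
Filled points give the log2 fold change of each receptor from edgeR over 6 libraries (horizontal axis, ko minus wt) with its 95% interval, and open diamonds the estimate without wt replicate 1. The intervals of 5 receptors exclude 0, and without that library the estimates of Pparg and Vdr lie above 0 and that of Rara at -0.20.

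Levels of different receptors were compared per length, in FPKM. Nr4a1 led with a mean of 166 FPKM (129.5 to 233 over the 6 libraries), above every other receptor in each library. Nr1h2 (mean 30.5), Rara (24.5), Vdr (23.3), Nr4a3 (16.6), Nr4a2 (15.2), Nr3c1 (11.5) and Rxra (10.4) followed, and each of these overlapped with its neighbor in this order. Nr1h3 (2.61) and Pparg (2.26) were lowest. They overlapped with each other and lay below Rxra in every library.

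**Figure D4:**
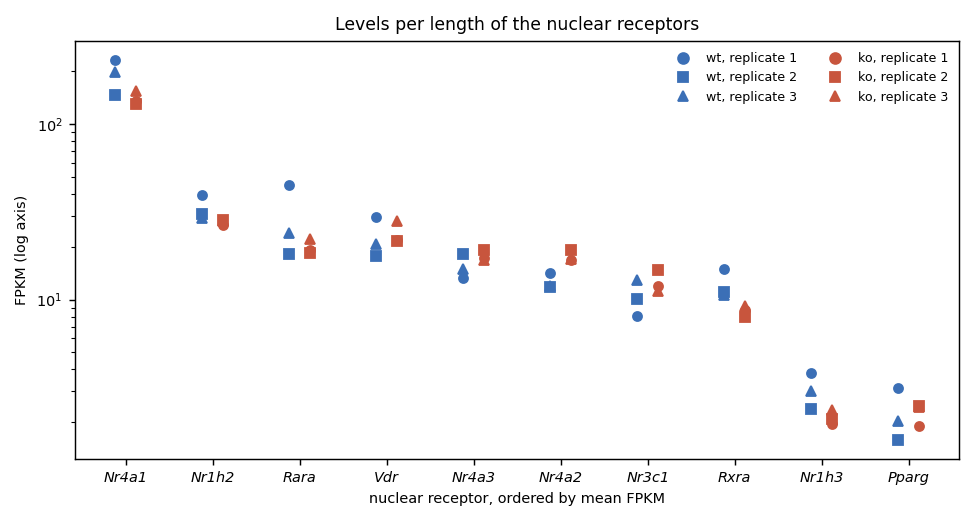
Points give the FPKM of each receptor (vertical log axis) in the 6 libraries, with receptors in the order of their mean. Nr4a1 lies between 129.5 and 233 FPKM, 7 receptors between 7.99 and 45.0, and Nr1h3 and Pparg between 1.59 and 3.84.

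Across the 6 libraries several of the receptors followed one another, as a description of points that include 2 groups and 1 library that stands apart. Pearson's r of log2 CPM was 0.987 for Nr4a1 and Nr1h3, 0.977 for Nr1h2 and Rxra, and -0.837 for Nr1h2 and Nr3c1. The genes most like each receptor by this measure were Dpp8 and Kcnk6 for Nr4a1, Per2 and Cmc1 for Nr4a2, Ciapin1 and Timp1 for Nr4a3, Rnf10 and Pih1d1 for Nr1h2, Fkbp15 and Rnf41 for Nr1h3, and Ebi3 and Atp6v0b for Rxra. They were Nrde2 and Dus2 for Pparg, Smagp and Pnpla7 for Rara, Ctdspl2 and Ltn1 for Nr3c1, and Rassf3 and Surf1 for Vdr. Likeness was common for some and rare for others: 818 genes had an r above 0.95 with Rxra, 498 with Nr4a1, 14 with Nr4a2 and 7 with Nr4a3.

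Among the other 39 nuclear receptors of the mouse, 31 were in the table and 18 could be tested. None passed an adjusted p of 0.05 in edgeR over 6 libraries, and at an unadjusted p under 0.05 3 were higher and 2 lower, and the median estimate was 0.28 (log2). The smallest p were those of the clock repressors Nr1d2 and Nr1d1. Nr1d2 was at 12.8, 15.4 and 21.6 CPM in wt replicates 1, 2 and 3 and 29.4, 53.6 and 26.9 in ko replicates 1, 2 and 3. Its log2 fold change was 1.14 (standard error 0.31) and that of Nr1d1 1.27 (standard error 0.37), each with adjusted p = 0.328 in edgeR. Both were called by DESeq2 without wt replicate 1 and ko replicate 3, with adjusted p = 0.00249 for Nr1d2 and 1.58e-05 for Nr1d1. That fit called no other of the list, and 10.1% of all genes with an adjusted p. The most abundant per length were Rarg, Rxrb and Ppard, all 3 lower in each library labelled ko, with log2 fold changes of -0.29, -0.25 and -0.37 on the TMM scale. Scaled to the macrophage markers they were at 0.23, 0.30 and 0.16, against 0.56 for the median gene.
Coregulators carry the signal of all these receptors to chromatin. Of 15 tested, 0 passed an adjusted p of 0.05 in edgeR over 6 libraries, and 1 was higher and 3 were lower at an unadjusted p under 0.05, with a median of -0.047. Ncoa4, a coactivator also known as the ferritin receptor of autophagy, had -0.47 (standard error 0.14), Ncoa1, the steroid receptor coactivator SRC-1, -0.31 (standard error 0.11), and Ncoa3, a relative of it, -0.38 (standard error 0.16), and on the macrophage marker scale they were at 0.042, 0.22 and 0.16. Hdac3 and Gps2, subunits of a corepressor complex, were the most abundant, with 0.086 (standard error 0.11) and -0.30 (standard error 0.17), the latter -0.13 without wt replicate 1. With wt replicate 1 and ko replicate 3 left out, DESeq2 called 1 of the 15, Ncoa4 (-0.65, adjusted p = 0.0107), against 10.1% of all genes with an adjusted p.
Of 15 genes that make or break down ligands, 9 could be tested and 0 passed an adjusted p of 0.05 in edgeR over 6 libraries or in DESeq2 without wt replicate 1 and ko replicate 3, with 1 higher and 1 lower at an unadjusted p under 0.05. Cyp27a1, which makes the LXR ligand 27-hydroxycholesterol, was the most abundant, at 38.3 to 75.0 CPM in wt libraries and 26.2 to 42.0 in libraries labelled ko, with a log2 fold change of -0.64 (standard error 0.27, adjusted p = 0.328, edgeR) and overlap, or -0.35 without wt replicate 1. Hsd11b1, which regenerates glucocorticoid, had -0.37 (standard error 0.22), and Rdh10, which makes retinaldehyde, 0.58 (standard error 0.35), which without wt replicate 1 were -0.20 and 0.30. Cyp27b1, which activates vitamin D, was near the limit of detection, with at most 1.19 CPM in any library and 0 counts in wt replicate 1. Without wt replicate 1, the list medians were -0.12 for the 10 receptors, 0.15 for the other nuclear receptors, -0.17 for LXR targets, -0.25 for PPARγ targets, -0.11 for coregulators and -0.083 for immediate early genes.

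**Figure D5:**
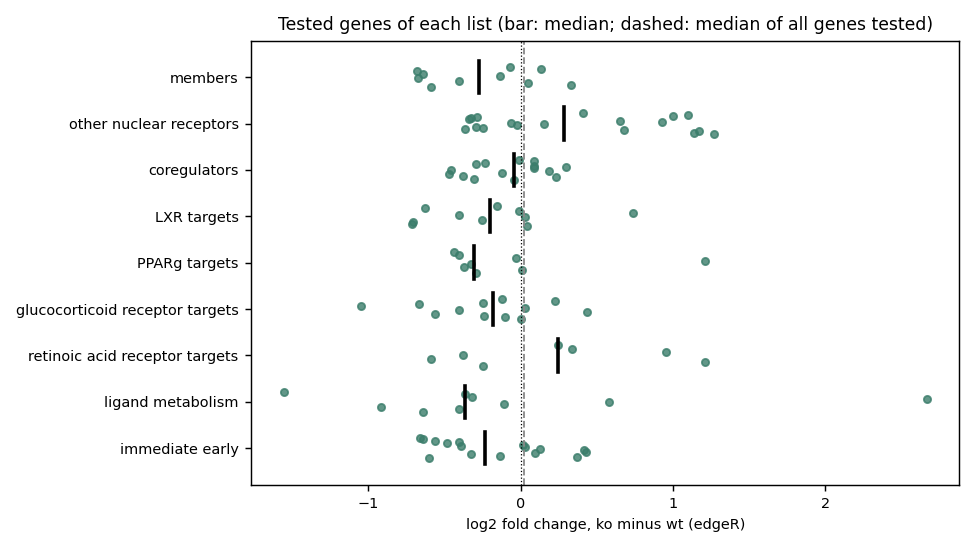
Each point is the log2 fold change (horizontal axis, ko minus wt, edgeR) of 1 tested gene of the list named on the vertical axis, where members stands for the 10 receptors. The black bar is the median of the list and the dashed line that of all genes tested, at 0.022, and every list spreads to both sides of 0.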

How the data were processed

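The deposited tables hold raw gene counts and FPKM of 6 libraries. Per the values of 22377 genes, the authors made FPKM from these counts, a fixed gene length and the library total. The submitters' processing notes name mm10, which is GRCm38. The aligner, the counting tool and the annotation are not given in the sources used here. Per the study, cDNA came from the SMARTer Ultra Low Input kit, whereas the labels describe a small RNA protocol.

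Counts were compared with edgeR 4.0.16 in R 4.3.3 (filterByExpr, TMM, glmQLFit, glmQLFTest, Benjamini-Hochberg over 13884 genes, threshold 0.05). A standard error is the size of the log2 estimate over √F. Alternatives used DESeq2 1.42.0 and limma 3.58.1 (log2 of FPKM plus 1 or 0.1). log2 CPM used a prior count of 2. The fit without wt replicate 1 and ko replicate 3 was tried because an earlier reading of these data placed the study's own comparison on the other 4 libraries, which was not checked here. The fits were tested on simulated data. Coordinates are from GENCODE M21, matched by symbol for all 10 receptors, and promoters from RefSeq on GRCm38.p6, with windows for 9 of the 10.

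The receptors, lists and tests were chosen with earlier results of these data known. Named genes were all 10 receptors, and from each list the 3 with the highest mean FPKM and the 2 with the smallest p, with the 2 genes most like each receptor. A further coregulator is not reported here. Abca1, Scd1, Angptl4 and the members of the immediate early list named as examples were chosen after their values were seen. Intervals cover the spread between these 6 libraries, and a count of 0 allows up to 3 counts.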

Additional observations from a re-analysis of the deposited data

How the results depend on the processing

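In edgeR, 0 genes and 0 receptors passed an adjusted p of 0.05 over 6 libraries, with 2112 genes at an unadjusted p under 0.05. Both counts stayed 0 under each other scaling, filter and limma fit, without any single library, or blocked by replicate. DESeq2 called 36 genes over 6 libraries and, without wt replicate 1 and ko replicate 3, 1266 genes and 2 receptors; the cause was not tested. The number of receptors whose groups did not overlap was 4, against 25.9% of all genes. It ranged from 4 to 7 without single libraries, with 7 without wt replicate 2. Leaving out a library cannot create overlap at a fixed scaling, so this range could only go up. Without wt replicate 1 the share of all genes was 15.2% lower and 16.6% higher, and without wt replicate 2 it is not given here. On the macrophage marker scale the number of receptors was 3, and none of the 3 receptors wholly below remained so. Rxra, Nr4a1, Nr1h2, Nr1h3, Rara and Nr4a2 kept their direction in all 16 alternatives other than scaling to macrophage markers, from -0.77 to -0.44 for Rxra, -0.75 to -0.41 for Nr4a1 and 0.26 to 0.48 for Nr4a2. Without single libraries, Rara ranged from -0.93 to -0.20. Without wt replicate 1, Zfp36 was at -0.24 and Ncoa3 at -0.24.

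Other estimates near 0 changed sign. Without single libraries, Nr4a3 ranged from -0.045 to 0.19, Pparg from -0.33 to 0.20, Nr3c1 from -0.0053 to 0.28, Vdr from -0.29 to 0.18, Scd2 from -0.089 to 0.040 and Hic1 from -0.16 to 0.84. Without wt replicate 1 and ko replicate 3, Nr4a3 was -0.064 in edgeR and -0.10 in DESeq2, Pparg 0.071 and 0.036, and Nr3c1 -0.021 in DESeq2. With limma on log2 FPKM plus 1 and plus 0.1, which moved the median of all genes to 0.092 and 0.16, Pparg was 0.032 and 0.056, Vdr 0.082 and 0.086, and Scd2 0.14 and 0.14. Scd2 was 0.024 with upper quartile scaling and 0.017 where each library needed 10 counts.

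Scaling to the macrophage markers, chosen after seeing the data, moved the median of all genes to 0.56 and left 0 genes called. It moved all genes by similar amounts, so a position below or above that median repeats the TMM result. Estimates that changed sign all lay below that median: Nr1h2 0.14, Pparg 0.41, Vdr 0.43, Rarg 0.23, Rxrb 0.30, Ppard 0.16, Scd2 0.52, Plin2 0.21, Fabp5 0.14, Cd36 0.23, Acsl1 0.14, Zfp36 0.081, Tgm2 0.13, Hsd11b1 0.15, Gps2 0.28, Ncoa3 0.16, Ncoa4 0.042, Ncoa1 0.22 and Ier3 0.092.

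The sources used here do not say whether replicate numbers pair the libraries. Libraries of the same number deviated from their group means with correlations of -0.241, 0.0605 and -0.337. Libraries of different numbers were not compared in this way, so these values cannot decide it. In the fit with a replicate block, 0 genes and 0 receptors were called. Receptors had at least 162 counts per library. How far depth and the spread between libraries each set the width of the intervals was not tested.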
